A study of Mus musculus with 19 samples.

Results

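Some T cells from the A223 tumours carried a clonotype name built from 3 receptor chains instead of the usual 2, and those three-chain cells are described here. They were found in the authors' per-cell table by counting the chains in each named clonotype of the tumour libraries made with the 5′ kit. Names stand for CDR3 loops, the most variable part of each chain, with the beta chain last. A two-chain name holds 1 alpha and 1 beta, and a three-chain name holds 2 alphas and 1 beta. Of 9030 named cells, 772 were three-chain and 8258 two-chain cells. The three-chain cells came from 12 of 71 named clonotypes. The 4 libraries held 21097 cells in all, and the whole series 41099.

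A223 is a mouse squamous cell carcinoma line that was injected into C57BL/6J mice. Tumours were digested with liberase, and CD8 T cells were sorted by flow cytometry. Each 5′ library was divided so that one portion gave gene expression and the other was enriched for T-cell receptor transcripts. The groups used here were regressing tumours (label Regressing/Regressor, replicates 2 and 3) and growing tumours (label Growing/Progressor, replicates 2 and 3), all of strain C57BL/6. The sources used here do not say how old the mice were, how many stood behind a library or how long the tumours had grown. All p-values therefore measure the spread between libraries, which may be technical. Gene-level values were not analysed here, so the CD8 sort and the cluster names were not checked against marker genes.

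A T-cell receptor pairs an alpha with a beta chain, and both are assembled by gene rearrangement in the thymus. Beta rearrangement is shut down strictly after a first success, whereas alpha rearrangement can proceed on both chromosomes, so a fraction of normal T cells transcribe a second productive alpha. A droplet that captures more than 1 cell also yields extra chains, and it sums the RNA of its cells. Cell number, shared chains, RNA content and cell state were therefore compared between the kinds of cell, with the library as the replicate.

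Per library, 1727 to 7832 cells and 24580139 to 58661165 UMIs (unique molecular identifiers, each marking 1 captured RNA molecule) were recorded. Median UMIs of two-chain cells ranged from 5239 in regressing replicate 2 to 11915 in growing replicate 3, so kinds of cell were compared only within a library. Between libraries, 398 of 21097 cells (1.89%) shared a cell barcode with a cell of another library. Of these, 15 were three-chain cells, and none shared a named clonotype with the other cell.

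Three-chain cells were a minority of named cells in every library. They made up 111 of 2588 named cells in regressing replicate 2 (4.29%, exact Clopper-Pearson 95% interval 3.54 to 5.14). In regressing replicate 3 they were 285 of 3852 (7.40%, 6.59 to 8.27). Growing replicate 2 had the highest share, 338 of 1609 (21.0%, 19.0 to 23.1). Growing replicate 3 had the lowest, 38 of 981 (3.87%, 2.76 to 5.28). All intervals cover counting error only. As a share of all cells with a receptor label, three-chain cells were 2.65%, 5.77%, 10.6% and 2.93% in the same order. The number of three-chain clonotypes was 2, 3, 5 and 2, beside 21, 15, 15 and 19 two-chain names.

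The growing tumours had a mean share of 12.4% ± 12.1 (SD, n = 2) and the regressing tumours 5.84% ± 2.20 (SD, n = 2). The growing group held both the highest and the lowest library, so the groups overlapped. The difference of 6.60 percentage points did not exceed the spread (two-sided exact permutation test, p = 1.0, where the smallest possible p is 0.33). Without growing replicate 2 it was -1.97 points.

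The 12 three-chain clonotypes were lettered A to L by library and then by number of cells. Regressing replicate 2 held A (70 cells) and B (41 cells). Regressing replicate 3 held C (153 cells), D (77 cells) and E (55 cells). Growing replicate 2 held F (138 cells), G (125 cells), H (43 cells), I (25 cells) and J (7 cells). Growing replicate 3 held K (25 cells) and L (13 cells). Each of the 12 occurred in 1 library only, and in 12 of 12 names the alphas stood in alphabetical order. The CDR3 loops were of like length in both kinds. Beta loops had a median of 14 residues in three-chain names (range 12 to 16, n = 12) and of 14 in two-chain names (10 to 16, n = 59). Alpha loops had a median of 14 residues in both (12 to 17, n = 24, and 11 to 17, n = 59).

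Among clonotypes with at least 10 cells, the median three-chain clonotype was smaller than the median two-chain one in 3 of 4 libraries. Regressing replicate 2 had medians of 55.5 against 86.5 cells, and regressing replicate 3 had 77 against 100. Growing replicate 3 had 19 against 35.5, while growing replicate 2 had 84 against 55.5. There the three-chain median was 43 with J, which has 7 cells, included. The sources used here do not say how the authors chose which clonotypes to name.

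A two-chain clonotype with the same beta and 1 of the same alphas was present in the same library for 7 of the 12 three-chain clonotypes (A, B, C, D, F, H and J). It is called the partner here. E, G, I, K and L had no partner, and neither of their alphas occurred in any other named clonotype of the library. In A, B, F, H and J the unshared alpha likewise occurred in no other named clonotype of the library. Thus in these 10 of 12 at least 1 alpha was seen in no other named clonotype of the library.

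**Figure D1:**
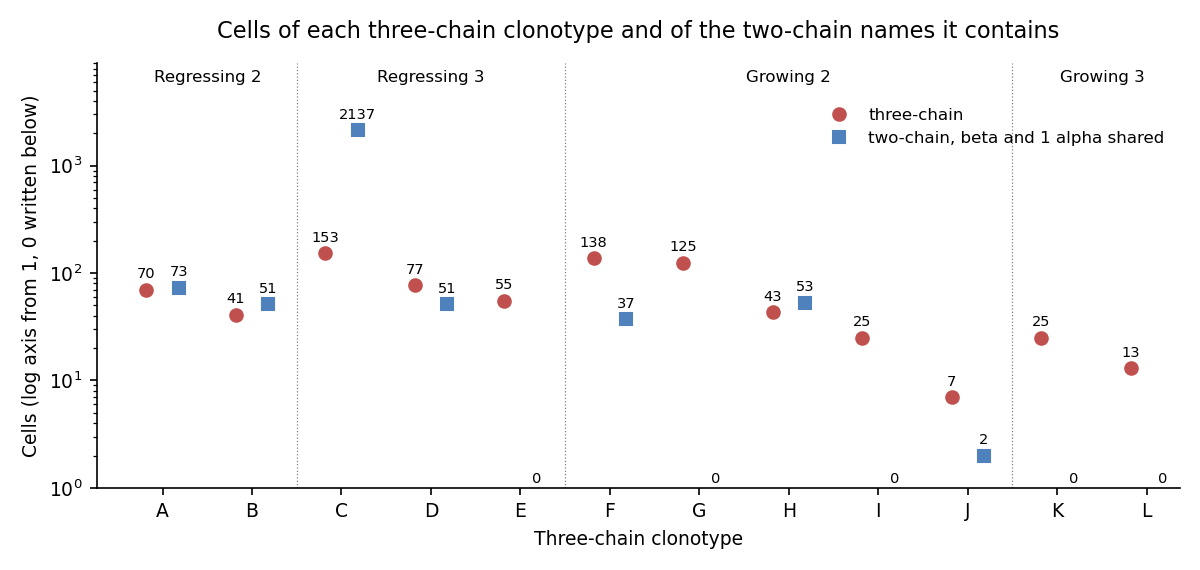
Number of cells (log axis) of each three-chain clonotype A to L (circles) and, summed, of the two-chain names that share its beta and 1 alpha in the same library (squares, 0 written at the base). The 2137 cells beside C stand far above the others, and E, G, I, K and L have 0.

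The balance between three-chain and two-chain cells of a partnered receptor differed widely, as the plot of cells per clonotype shows. Clonotype C, with 153 cells, was 6.68% of its pair (interval 5.69 to 7.78), and its partner, with 2137 cells, was the largest clonotype of regressing replicate 3. A was 49.0% of its pair (70 against 73 cells, interval 40.5 to 57.4). B was 44.6% (41 against 51 cells), and H was 44.8% (43 against 53 cells). D was 63.6% (77 against 44 cells), with a second partner of 7 cells that carried its other alpha. F was 78.9% of its pair (138 against 37 cells, interval 72.1 to 84.7). J had 7 cells against 2.

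C and D differed from the other 10 in that both of their alphas occurred elsewhere in the library. One alpha, of 16 residues, recurred in 5 named clonotypes over the 4 libraries, 3 of them three-chain (B, C and D), whereas no other alpha was in more than 3. In regressing replicate 3 this recurrent alpha was in 153 cells of C, 77 cells of D and 7 cells of the second partner of D. No named two-chain cell joined it to the beta of C. In this library 3852 of 4940 cells with a receptor label were named, and the chains of the rest were not seen. A further alpha of the same library joined both betas, in 84 two-chain cells with the beta of C and 129 with the beta of D.

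Alphas seen with more than 1 beta were in 4 of 12 three-chain clonotypes (B, C, D and H; 314 of 772 cells) and in 7 of 70 two-chain clonotypes counted per library (925 of 8258 cells). The alpha that H shared with its partner also stood with another beta in 493 cells of growing replicate 2. The recurrent alpha stood with another beta in 108 cells of regressing replicate 2, where B was found. A clonotype with a further alpha has more chances to share one, and the difference between the kinds was not tested.

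The receptors of D, H and J also occurred in other libraries, there without the second alpha. The pair of D with the recurrent alpha was in 108 two-chain cells of regressing replicate 2 and 81 of growing replicate 2, with 0 three-chain cells, which allows shares of up to 2.78% and 3.70%. The pair of H was in 102 two-chain cells of regressing replicate 3 and 0 three-chain cells (up to 2.94%). The pair of J was in 66 two-chain cells of regressing replicate 3 and 0 three-chain cells (up to 4.55%). It was also in 6 cells of regressing replicate 2 and 1 of growing replicate 3, and the pair of C with its partner's alpha was in 1 cell of growing replicate 3, too few for a limit. Among named cells, the second alpha was thus seen with these receptors in 1 library each.

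Taken as a whole, three-chain cells had 0.945 to 1.16 times the median UMIs of two-chain cells. In regressing replicate 2 the median was 6052 UMIs in three-chain and 5239 in two-chain cells, a ratio of 1.16. In regressing replicate 3 it was 7529 against 7396, a ratio of 1.02. In growing replicate 2 it was 8555.5 against 7846, a ratio of 1.09. In growing replicate 3 it was 11256.5 against 11915, a ratio of 0.945. Three-chain cells were higher in 3 of 4 libraries, and the part of droplets with more than 1 cell in these ratios was not tested.

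The mean log2 ratio of median UMIs was 0.07 ± 0.13 (SD, n = 4). It did not exceed the spread between libraries (two-sided exact sign-flip test, p = 0.375, adjusted over 5 measures 0.469, smallest possible p 0.13). Without clonotype A the log2 ratio was -0.03. Detected genes followed the same order, with medians of 1951 against 1775, 2329 against 2280, 2366 against 2290 and 3009.5 against 3018 in three-chain and two-chain cells. Their mean log2 ratio was 0.05 ± 0.0598 (SD, n = 4, exact sign-flip p = 0.25, adjusted 0.469). The percent of mitochondrial UMIs, a sign of cell damage, averaged 1.89% and 1.86%, a difference of 0.0281 points ± 0.0521 (exact sign-flip p = 0.5).

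**Figure D2:**
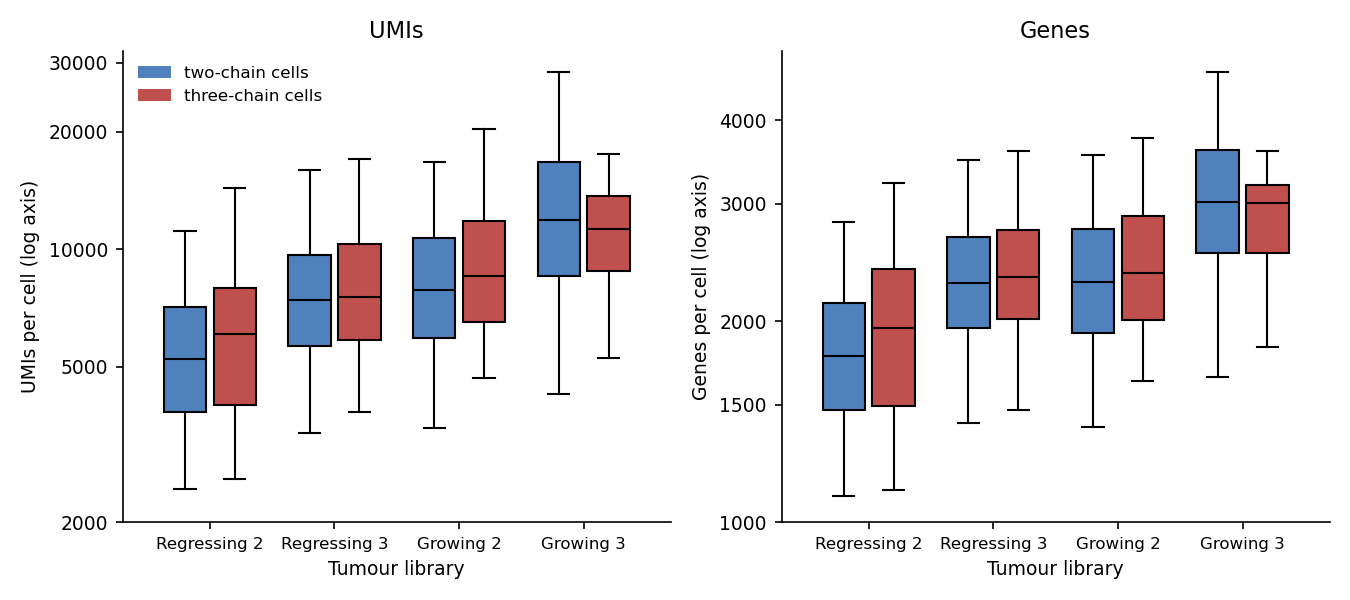
UMIs per cell (left) and detected genes per cell (right), both on log axes, for two-chain and three-chain named cells of the 4 tumour libraries; boxes span the quartiles, lines mark medians and whiskers the 5th and 95th percentiles. Boxes of both kinds overlap in every library, and the three-chain median lies above the two-chain one in 3 of 4 for UMIs.

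A library median can miss a minority of cells with very high UMIs, so these were counted next. Above the 95th percentile of the two-chain cells of the library lay 14 of 111 three-chain cells in regressing replicate 2 (12.6%, 7.07 to 20.3). In regressing replicate 3 there were 19 of 285 (6.67%, 4.06 to 10.2), and in growing replicate 2 there were 28 of 338 (8.28%, 5.58 to 11.8). Growing replicate 3 had 0 of 38, which allows up to 7.89%. The mean excess over two-chain cells was 1.85 points ± 5.27 (SD, n = 4, exact sign-flip p = 0.625), and it was -0.0644 without regressing replicate 2.

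Counted instead as cells with more than double the two-chain median, three-chain cells reached 13.5%, 7.72%, 11.8% and 0%, against 6.18%, 6.31%, 6.29% and 9.44% of two-chain cells. The high cells belonged mainly to a few clonotypes. G had 25 of its 125 cells above double (20%), I had 6 of 25 (24%), A had 13 of 70 (18.6%) and C had 21 of 153 (13.7%). D, J, K and L had 0 above double.

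Three-chain clonotypes spread over most of the range of the two-chain ones. Their medians were 0.824 times (J) to 1.40 times (G) the two-chain median of the library, and 5 of 12 were above it (A, C, G, H and I). Two-chain clonotypes with at least 10 cells were used for the ranges. C, with a median of 9339 UMIs, stood above 14 of 14 two-chain clonotype medians of its library (5351.5 to 8801.5). G, with 10971, stood above 12 of 12 (6017 to 9769). The other 10 lay within the range of their library.

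Dividing cells hold more RNA than resting ones, so medians were also compared within clusters. Among the 22 combinations of cluster and library with at least 10 cells of both kinds, three-chain cells were higher in 15, with ratios from 0.771 to 1.38. This included 8 of 8 clusters in growing replicate 2 but only 2 of 5 in regressing replicate 2. The mean within-cluster log2 ratio was 0.03 ± 0.0765 (SD, n = 4, exact sign-flip p = 0.625), and it was -0.0016 without growing replicate 2.

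The closest comparison is between a three-chain clonotype and its own partner, since both share a beta and an alpha. The 2 sides differ by whether a further alpha was read, and whether that reading depends on the UMIs of a cell was not tested. In 6 pairs (A, B, C, D, F and H) both sides had at least 10 cells, and the three-chain side had more UMIs in 6 of 6. A had a median of 6409.5 UMIs against 5111 in its partner, a ratio of 1.25. B had 4545 against 3310, a ratio of 1.37. C had 9339 against 7848, a ratio of 1.19.

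D had 6307 against 5376.5, a ratio of 1.17. F had 7702 against 6017, a ratio of 1.28. H had 8297 against 7639, a ratio of 1.09. The quartiles of the cells overlapped in each pair. Of the pairs below 10 cells, D had a ratio of 1.24 to its 7-cell partner and J, with 7 cells, had 0.840 to its 2-cell partner.

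**Figure D3:**
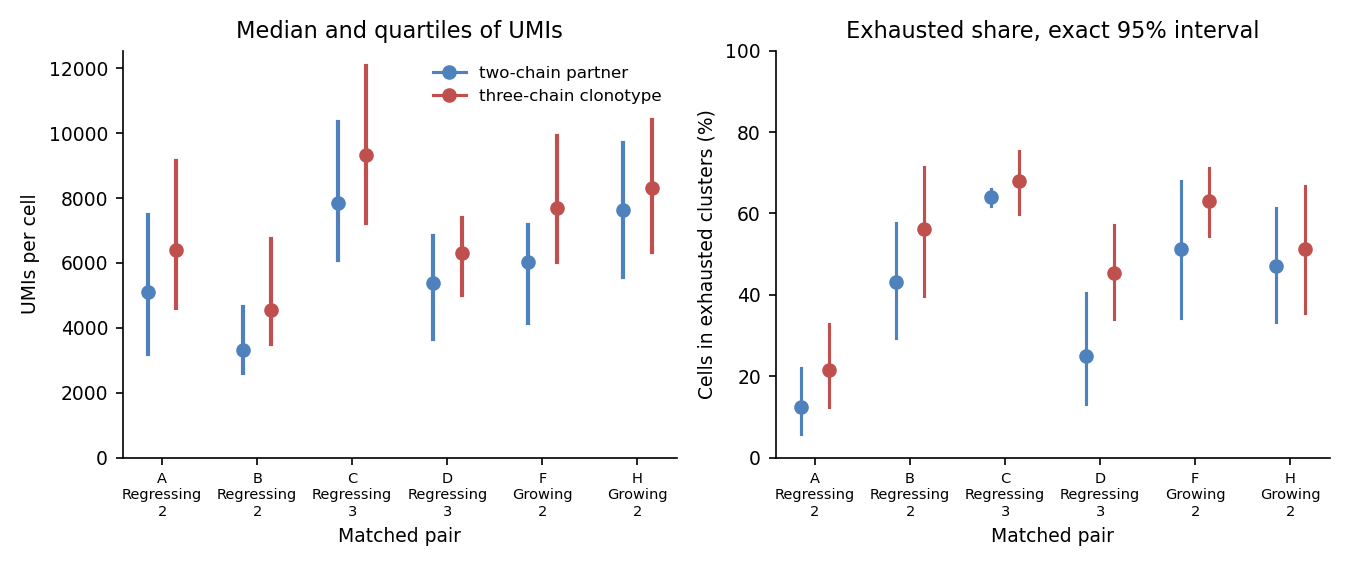
The 6 three-chain clonotypes and their two-chain partners of the same library: median UMIs per cell with quartiles (left) and the share of cells in exhausted clusters with its exact 95% interval (right). The three-chain point is the higher one in 6 of 6 pairs on both sides, while bars overlap within each pair.

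Averaged within libraries, the log2 ratio was 0.39 in regressing replicate 2 and 0.24 in each of regressing replicate 3 and growing replicate 2. The mean was 0.29 ± 0.0883 (SD, n = 3). With 3 libraries the exact sign-flip test can reach no p below 0.25, which is the value it gave. Genes per cell, compared after seeing the data, were likewise higher in 6 of 6 pairs (log2 ratio 0.20 ± 0.0855, n = 3, exact sign-flip p = 0.25). Mitochondrial percent was lower in 5 of 6 pairs (-0.0274 points ± 0.0395).

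The three-chain side also had the higher median in cells matched for stage or state. Among G1 cells alone the ratios were 1.28, 1.09, 1.19, 1.18, 1.14 and 1.02 in A, B, C, D, F and H. Among cells of exhausted clusters alone they were 1.21, 1.11, 1.06, 1.22 and 1.12 in B, C, D, F and H, the partner of A having fewer than 10 such cells. The highest ratio over all cells was 1.37, in B. Cells above double the partner's median were 29.3% of B against 5.88% of its partner (intervals 16.1 to 45.5 and 1.23 to 16.2). In A they were 18.6% against 11.0%, in C 11.8% against 6.79% and in F 12.3% against 8.11%. In D they were 1 of 77 cells against 0 of 44, and H had 6.98% against 9.43%. Among two-chain clonotypes with at least 10 cells, the partners of B and F had the lowest UMI median of their libraries. That of D had the second lowest of 14, whereas that of C ranked 13 of 14.

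The deposited clusters place CD8 T cells along activation, division and exhaustion, the last being the dysfunctional state of T cells under chronic antigen. Three-chain cells were in 9 of the 13 clusters of the table. They had 0 cells in NKT-like, Naive 1, Naive 2 and Naive 3, where two-chain cells averaged at most 0.0797% per library. Of 13 clusters, 2 (15.4%) had a lower three-chain share in 4 of 4 libraries, and 0 had a higher one in 4 of 4.

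Those were Activated Exhausted and Initial Activation. Activated Exhausted held 24.3% of three-chain against 28.3% of two-chain cells in regressing replicate 2, 21.1% against 24.4% in regressing replicate 3, 19.2% against 26.4% in growing replicate 2 and 10.5% against 22.8% in growing replicate 3. The mean difference was -6.67 points ± 4.09 (SD, n = 4). It was -3.38 without the largest clonotype of each library. Among cells whose beta was found in both kinds it was -0.870, over 3 libraries. Growing replicate 3 had no such three-chain cells, and leaving out that library alone gave -4.80. Initial Activation held 8.11% against 17.6%, 6.67% against 8.77%, 3.25% against 6.14% and 2.63% against 7.10%, a mean difference of -4.75 points ± 3.34 (SD, n = 4).

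Both reached the smallest p that 4 libraries allow (exact sign-flip test, p = 0.13), and with adjustment over 13 clusters it was 0.812. limma with the library as a block called 0 of 9 clusters at an adjusted p under 0.05 and 1 at an unadjusted p (Initial Activation, p = 0.0292, adjusted 0.263). Without the largest clonotype of each library, 1 cluster had the same direction in 4 of 4.

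**Figure D4:**
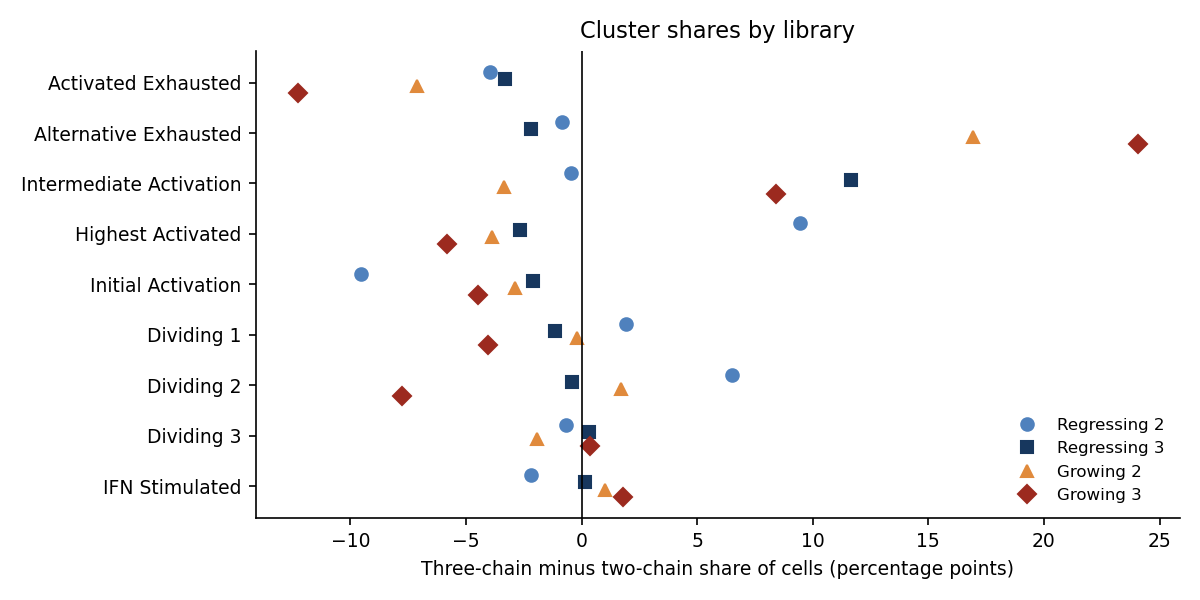
Share of three-chain cells minus share of two-chain cells, in percentage points, for the 9 clusters that hold three-chain cells; each symbol is 1 library. Activated Exhausted and Initial Activation lie left of 0 in 4 of 4 libraries, and Alternative Exhausted lies right of 0 in both growing and left of 0 in both regressing libraries.

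No other cluster with at least 1% of named cells had the same direction in 4 of 4 libraries. Alternative Exhausted held 9.91% of three-chain against 10.7% of two-chain cells in regressing replicate 2 and 28.8% against 31.0% in regressing replicate 3. In growing replicate 2 it held 39.3% against 22.4%, and in growing replicate 3 it held 44.7% against 20.7%. Intermediate Activation was higher among three-chain cells in regressing replicate 3 (21.1% against 9.42%) and growing replicate 3 (23.7% against 15.3%). In regressing replicate 3 it held 67.3% of E, 20.8% of D and 4.58% of C. Highest Activated was higher in regressing replicate 2 alone (24.3% against 14.9%), where it held 37.1% of A and 2.44% of B.

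Summed over both exhausted clusters, three-chain and two-chain cells were at 34.2% and 39.0% in regressing replicate 2, 49.8% and 55.3% in regressing replicate 3, 58.6% and 48.8% in growing replicate 2, and 55.3% and 43.5% in growing replicate 3. The mean difference was 2.82 points ± 9.25 (SD, n = 4, exact sign-flip p = 0.625, adjusted over 5 classes 0.625). It was -2.44 points without clonotype C.

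Shares of dividing cells differed in both directions between the kinds. The 3 dividing clusters held 20.7% of three-chain against 13.0% of two-chain cells in regressing replicate 2, 10.2% against 11.4% in regressing replicate 3, 21.0% against 21.4% in growing replicate 2 and 15.8% against 27.3% in growing replicate 3. The mean difference was -1.34 points ± 7.88 (SD, n = 4, exact sign-flip p = 0.625), and it was 2.03 without growing replicate 3.

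Phase calls rest on scores of S-phase and G2M genes. G1 cells were 58.6%, 65.6%, 66.9% and 63.2% of three-chain cells against 64.5%, 64.5%, 61.1% and 58.0% of two-chain cells. G2M cells were 12.6%, 10.2%, 6.80% and 7.89% against 8.88%, 9.36%, 13.6% and 14.3%. The mean differences were 1.53 points ± 5.36 for G1, 0.639 ± 1.81 for S and -2.17 ± 5.27 for G2M (SD, n = 4). Their exact sign-flip p-values were 0.625, 0.5 and 0.5. Leaving out 1 library at a time moved them from 0.133 (without growing replicate 2) to 4.01 (without regressing replicate 2) for G1. For S they ran from 0.124 (without regressing replicate 2) to 1.51 (without regressing replicate 3), and for G2M from -4.14 (without regressing replicate 2) to -0.626 (without growing replicate 2). Phase calls depend on depth as well as on division, and cells were not thinned to equal UMIs.

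Single three-chain clonotypes covered a wide range of states. The exhausted share ran from 5.45% in E to 69.2% in L, and from 4.49% to 73.0% among two-chain clonotypes of at least 10 cells in the plot of states by clonotype. E stood apart with 67.3% of its 55 cells in Intermediate Activation. L had 61.5% and G 49.6% of its cells in Alternative Exhausted. C had 68.0% and F 63.0% in exhausted clusters, whereas A had 21.4%, with 37.1% in Highest Activated. The dividing share ran from 3.90% in D to 28% in G and I.

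**Figure D5:**
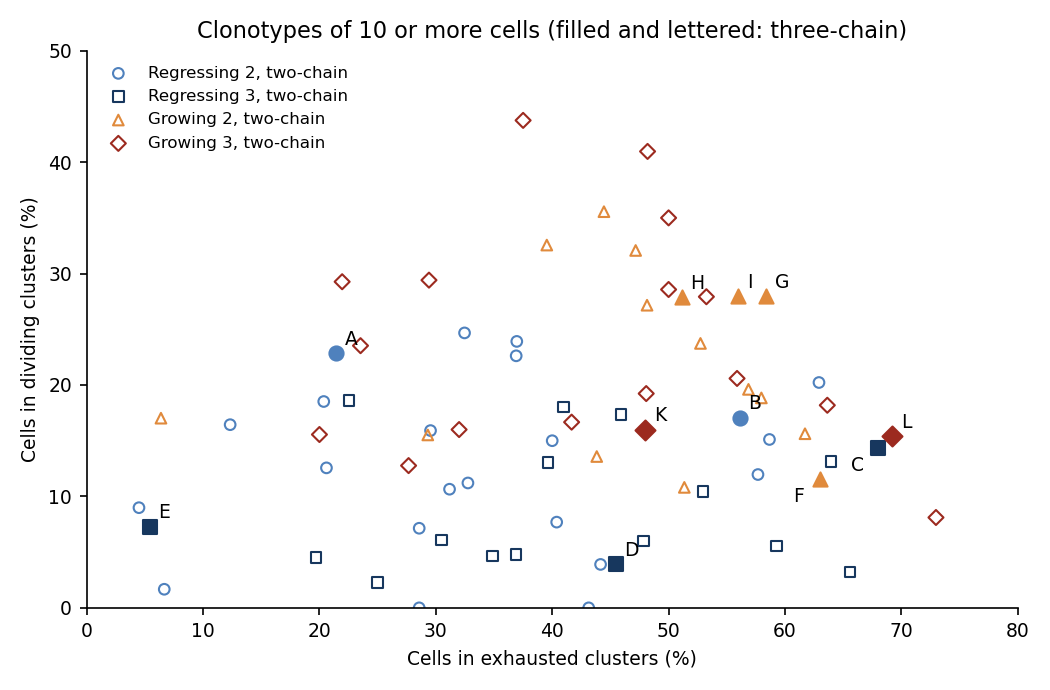
Each point is a named clonotype with at least 10 cells in 1 library, placed by its share of cells in exhausted clusters (x axis, %) and in dividing clusters (y axis, %); filled, lettered points are three-chain and open points two-chain. Three-chain points run from E (5.45% exhausted) to L (69.2%) and lie among the open points of the plot.

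Cluster shares in matched pairs were compared after seeing the data. Against its own partner, the exhausted share was higher on the three-chain side in 6 of 6 pairs with at least 10 cells on both sides. It was 21.4% in A against 12.3% in its partner, 56.1% in B against 43.1%, and 68.0% in C against 64.0%. It was 45.5% in D against 25%, 63.0% in F against 51.4%, and 51.2% in H against 47.2%. Exact intervals overlapped in each pair. The mean over libraries was 10.4 points ± 2.27 (SD, n = 3, exact sign-flip p = 0.25, the smallest possible). Of the pairs below 10 cells, D had 45.5% against 57.1% in its 7-cell partner. J, with 7 cells, had 28.6% against 0% in its 2-cell partner.

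Alternative Exhausted was higher in 6 of 6 pairs (8.47 points ± 4.51, n = 3, exact sign-flip p = 0.25), and Initial Activation was lower in 5 of 6 (-9.55 points ± 7.35, n = 3, exact sign-flip p = 0.25), with H the exception. Activated Exhausted, which was lower among three-chain cells as a whole, was higher on the three-chain side in 5 of 6 pairs, again other than H (1.90 points ± 6.67, n = 3, exact sign-flip p = 0.75). The dividing share was likewise higher in 5 of 6 pairs, by 3.83 points ± 7.03 (n = 3, exact sign-flip p = 0.75). B had 17.1% dividing cells and its partner 0 of 51. The three-chain side also had more UMIs in each of these pairs, and the part of depth in these shares was not tested.

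The spread of each clonotype over the clusters was compared as the share of cells that would have to change cluster to match the other (in points, where 0 is an identical spread). Only two-chain clonotypes with at least 10 cells were ranked. Shares of small clonotypes vary more by counting error, and distances and ranks were not adjusted for cell number. The partner of C had 2137 cells. By this measure the distance of C to its partner was 6.63, the nearest of the 14 two-chain clonotypes of its library. A was 17.2 and B 30.0 from their partners, each the second nearest of 20. F was 16.8 from its partner, the third nearest of 12, and D 23.7, rank 4 of 14. H was 28.0 from its partner, rank 6 of 12.

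The authors also put receptors into similarity groups. C was in Group2, D and I in Group1, F in Group8, G in Group5 and H in Group3, and the other 6 three-chain clonotypes were in none. Each partner had the same group entry as its three-chain clonotype. The two-chain names that shared only the beta of C or of D also had that entry, so matching by beta may have set this agreement. Grouped cells were 0 of 111 three-chain cells in regressing replicate 2 against 62.0% of two-chain cells, and 80.7% against 79.2% in regressing replicate 3. In growing replicate 2 they were 97.9% against 57.7%, and in growing replicate 3 they were 0 of 38 against 65.9%. All cells of a clonotype share 1 entry, so with 2 to 5 three-chain clonotypes per library these shares rest on few receptors, and they went in opposite directions in different libraries.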

How the data were processed

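The deposited per-cell table holds, for every cell, a UMI count and how many genes were detected, totalled by the authors and not normalised. The authors also deposited the mitochondrial percent of each cell. The S and G2M score columns are cell-cycle scores, per the file headers, and the phase call matched the rule of these scores in 100% of cells. Cell Ranger is named in the submitters' processing notes, without a version. The sources used here give no genome build or doublet treatment, and no doublet caller was run here. The table has 0 columns of samples outside the series.

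Medians and shares were computed per library (Python 3.11.15, numpy 2.4.6, pandas 2.3.3, scipy 1.17.1) and tested over libraries by exact two-sided sign flips, with 4 libraries, or 3 with partners, and with exact permutation tests between tumour states. Adjusted p-values are Benjamini-Hochberg values. As an alternative, limma 3.58.1 (R 4.3.3) was fitted to logit shares, with 0.5 cells added and the library as a block. It covered the 9 clusters with at least 1% of named cells. The fit was tried on simulated counts without clonotypes, so that trial does not cover cells grouped by clonotype. Beside a count of 0 stands the share that 3 cells would be.

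All clusters and phases were named, as were the partnered three-chain clonotypes with at least 10 cells and the 3 largest per library. The remaining letters were named after their values were seen. Members, lists and tests were chosen with earlier results of these data known. Libraries of the 3′ kit, spleens, pooled label classes and the A223 tables were left out. The CDR3 letters of single receptors are not printed.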

Additional observations from a re-analysis of the deposited data

Results flagged for a closer look

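Among all the measures and shares compared between three-chain and two-chain cells, only 3 shares differed in opposite directions in growing and regressing tumours. They were picked for this split, and how often chance gives it was not tested. Alternative Exhausted is part of the exhausted share, so these 2 are not separate results. For cells in exhausted clusters, three-chain minus two-chain was 9.80 and 11.8 points in the growing libraries and -4.80 and -5.52 in the regressing ones, a difference of 16.0 points. Alternative Exhausted alone gave 16.9 and 24.1 points against -0.829 and -2.21, a difference of 22.0 points. G2M cells gave -6.81 and -6.42 points against 3.73 and 0.812, a difference of -8.89 points. Each exact permutation p was 0.33, the smallest that this test allows with 2 libraries against 2. Other shares without opposite directions reached the same p, among them G1, Activated Exhausted and Highest Activated. No three-chain clonotype was in more than 1 library, so among three-chain cells tumour state and clonotype cannot be told apart.

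In the Naive 2 cluster, growing replicate 2 stood apart from the other libraries, at -0.0787 points against 0 in each of them. It rests on 1 two-chain cell. The usual rate of about 1 in 20 groups marked by chance does not hold here. With 0 in each other library, any other value would be marked.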

How the results depend on the processing

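The 4 libraries hold 12 three-chain clonotypes, no exact test could reach p under 0.05, and growing replicate 3 has 38 three-chain cells. Of 233 alternative values of 21 results, 213 kept direction and side of the threshold. With the exact tests only the direction could change. It could not change for the replicate block, nor for a minimum of 20 cells in matched pairs, which kept the same 6 pairs. These alternatives are among the 213. UMIs, genes and exhausted share in matched pairs kept their direction under each alternative run. The alternatives that leave out a clonotype, limma at an unadjusted p, and genes and cluster shares in matched pairs were chosen after seeing the data. The cause of each change was not tested.

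Without the largest clonotype of each library, the G1 difference was -0.554 points, the dividing difference 0.826, and 1 cluster had the same direction in 4 of 4 libraries. Cells with a beta in both kinds gave -1.23 points for S and 0.784 for dividing, over 3 libraries. Growing replicate 3 was not among them, and leaving out that library alone gave 0.428 for S and 2.03 for dividing. Equal weight of clonotypes gave 0.145 for dividing. limma called 0 clusters at an adjusted and 1 at an unadjusted p. Without clonotype A the log2 UMI ratio was -0.0341 and the excess above the 95th percentile -0.0803 points. The dividing difference without F was 0.284, and the exhausted difference without B was -0.386 and without C -2.44.

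Leaving out each library in turn gave -0.0016 to 0.0604 for the within-cluster log2 ratio (reversed without growing replicate 2), -0.0644 to 4.17 points for the excess above the 95th percentile (without regressing replicate 2), and 2 to 6 clusters of one direction (6 without regressing replicate 2). It gave -4.37 to 2.03 points for dividing and -0.174 to 5.59 for exhausted (both reversed without growing replicate 3). For growing minus regressing it gave -1.97 to 15.2 points for the three-chain share (reversed without growing replicate 2) and -0.20 to 0.00798 for the log2 UMI ratio (without growing replicate 3). With the replicate block, growing minus regressing was 6.60 points for the share (16.7 and -3.53 in the pairs). For the log2 UMI ratio it was -0.10. With 2 libraries per state both values equal the main ones by construction, so neither direction nor call could change. The labels give these libraries a shared number only.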

Other observations

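Three-chain and two-chain cells were also set beside the other cells of the same libraries. Cells without a receptor label had median UMIs of 6245 in regressing replicate 2, 6823 in regressing replicate 3, 10406 in growing replicate 2 and 15952 in growing replicate 3. In the same order, three-chain cells had 6052, 7529, 8555.5 and 11256.5. Two-chain cells had 5239, 7396, 7846 and 11915. Both kinds were thus below the unlabelled cells in the same 3 of 4 libraries. Cells whose receptor the authors pooled under a common label had 5427, 6236, 6977.5 and 8865. These were below the three-chain cells in 4 of 4 libraries and below the two-chain cells in 3 of 4.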
